A study of Mus musculus with 9 samples.

Results

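The genes described here encode 10 receptor chains for interleukins and interferons: Il4ra, Il10ra, Il10rb, Il6ra, Il13ra1, Il15ra, Il17ra, Ifngr1, Ifnar1 and Ifnar2. They were chosen by name, through their mouse Ensembl identifiers, and make up 10 of the 12204 genes with values. The cells were macrophages grown from C57/Bl6J mouse bone marrow over 6 days with 20% L929 supernatant, a source of the macrophage growth factor M-CSF. The untreated group received neither agent, the LPS group received 10 ng/ml lipopolysaccharide (LPS, from the outer membrane of Gram-negative bacteria and sensed through TLR4) for 4 h, and the BMS303141 plus LPS group received 50 µM BMS303141 from 1 h before that LPS treatment. BMS303141 blocks ATP-citrate lyase, which turns citrate into acetyl-CoA in the cytosol. Each group had 3 libraries of messenger RNA 3′ ends, and no library received the inhibitor without LPS. The labels name no vehicle. They leave unstated if the replicates were different mice or different cultures, and the p-values therefore measure the spread between libraries, which may be technical.

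Most of these chains signal through Janus kinases (JAKs) bound to their inner ends. A cytokine brings chains of different kinds together, the kinases phosphorylate them, and STAT proteins that dock there move to the nucleus. IL4RA pairs with the common gamma chain or with IL13RA1 and uses STAT6, the IL-10 receptor uses STAT3, IL6RA joins the shared chain encoded by Il6st, and the type I interferon receptor uses STAT2 with IRF9. The IL-17 receptor differs, acting through the adaptor encoded by Traf3ip2 and TRAF proteins. In macrophages IL-4 and IL-13 are known for alternative activation, IL-10 for restraining inflammation, and interferon gamma for classical activation.

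All values are log2 CPM, the log2 of counts per 1 M reads, taken at transcript 3′ ends and not divided by transcript length. Depth, estimated from the spacing of the low values, was 1.83 M reads on listed genes in LPS replicate 1 and 2.98 to 5.05 M in the other libraries, and a gene at the median held about 26.8 to 72.7 reads. LPS replicate 1 stood apart: on the second principal component, which carried 9.44% of the variance, it lay at -63.1 while the other LPS libraries lay at 1.31 and -5.48. All 14 macrophage markers were listed, with summed levels of 13108 to 13695 CPM in untreated, 7061 to 7151 in LPS and 6666 to 6935 in BMS303141 plus LPS libraries. Of 9 neutrophil markers only S100a8 and S100a9 were listed, and their sum was 7.81 to 29.6 CPM untreated, 33.9 to 60.9 with LPS and 172 to 264 with the inhibitor. S100a8 alone carried that rise, with log2 means of 3.30, 5.46 and 7.75 in this order, whereas S100a9 was at 0.82, 0.39 and 0.87. Itgax, the single listed marker of 7 for dendritic cells, was at 3.04 to 4.19, 13.5 to 22.5 and 4.77 to 5.36 CPM in the same order. Listed were also 2 of 11 T, B and NK cell markers (at most 8.67 CPM in sum), 4 of 7 stromal markers (at most 23.7 CPM), 0 of 5 mast cell and 0 of 6 erythroid markers. The part of these levels in the results below was not tested.

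**Figure D1:**
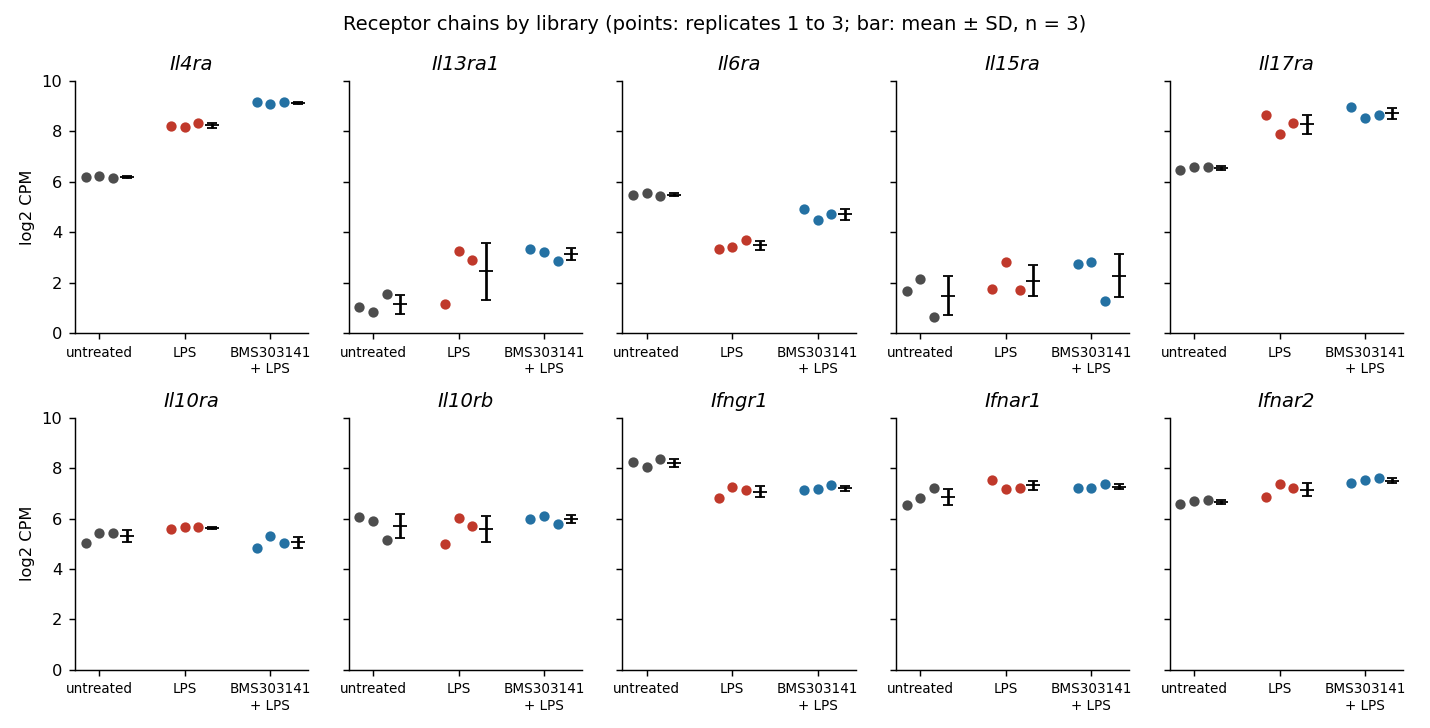
Log2 CPM (vertical axis) of each receptor chain in the untreated, LPS and BMS303141 plus LPS libraries. Points are replicates 1 to 3 and bars the mean ± SD (n = 3); Il4ra rises stepwise from 6.19 to 8.25 to 9.14, whereas Il6ra falls from 5.49 to 3.48 and lies at 4.72 with the inhibitor.

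After LPS the macrophages carried more messenger RNA for the IL-4 and IL-17 receptor chains Il4ra and Il17ra, and less for the IL-6 and interferon gamma receptor chains Il6ra and Ifngr1. Il4ra and Il17ra rose 4.15-fold and 3.34-fold. Il6ra and Ifngr1 fell to levels 4.03-fold and 2.21-fold lower. Ifnar1 and Ifnar2, which form the type I interferon receptor, and Il13ra1 rose by smaller or less certain amounts. Of the 10 chains, 5 rose and 2 fell at an adjusted p under 0.05, while among all 12196 genes tested 47.0% were called in either direction (21.5% higher and 25.4% lower). The median difference was 0.47 over the chains and -0.06 over all tested genes. By size, 89.9% of tested genes had a smaller absolute difference than Il4ra and 89.4% a smaller one than Il6ra. In bulk RNA, fewer cells carrying a transcript and less of it per cell cannot be told apart. Without LPS replicate 1, 6 chains were called: Il4ra at 2.07, Il13ra1 at 1.94, Il17ra at 1.56, Ifnar2 at 0.62, Il6ra at -1.95 and Ifngr1 at -1.02, while Ifnar1 was not (0.36, adjusted p = 0.0704).

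With the inhibitor ahead of LPS, Il6ra and Il4ra were both higher than with LPS alone, by 2.35-fold and 1.85-fold, and no chain was called lower (at an unadjusted p under 0.05, Il10ra alone). Those 2 of 10 chains compare with 2.12% of all tested genes called in this contrast (0.959% higher and 1.16% lower). The median difference was 0.37 over the chains and -0.00 over all tested genes. By size, 96.9% of tested genes had a smaller absolute difference than Il6ra and 92.2% a smaller one than Il4ra. Without LPS replicate 1 both calls held (Il6ra 1.17, adjusted p = 0.00314; Il4ra 0.87, adjusted p = 0.000556), and Il17ra was called as well (0.61, adjusted p = 0.0430). When libraries were centred on ribosomal protein genes, the share of higher genes among all calls moved from 45.3% to 31.8% in this contrast and from 45.9% to 54.5% after LPS, with 2 and 7 chains called as before.

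Against untreated cells, the cells given the inhibitor and LPS had 5 chains higher and 2 lower, beside 47.1% of all tested genes called (21.5% higher and 25.6% lower). The 3 comparisons share libraries: those with LPS alone enter the comparisons with untreated and with inhibitor-treated cells from opposite sides. Values of the comparisons therefore stand side by side and none supports another.

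**Figure D2:**
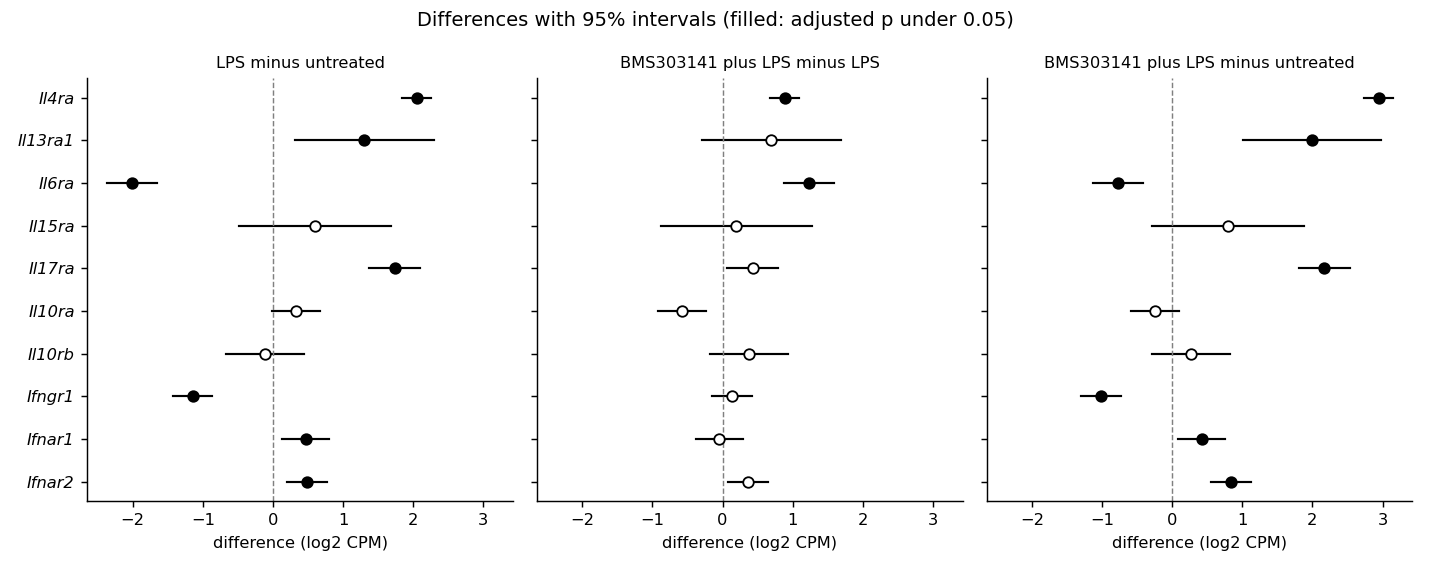
Differences in log2 CPM (horizontal axis) of each chain in the 3 comparisons, with 95% intervals from the linear model over 9 libraries. Filled points have an adjusted p under 0.05; in the middle panel only Il6ra (1.23) and Il4ra (0.89) are filled.

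**Figure D3:**
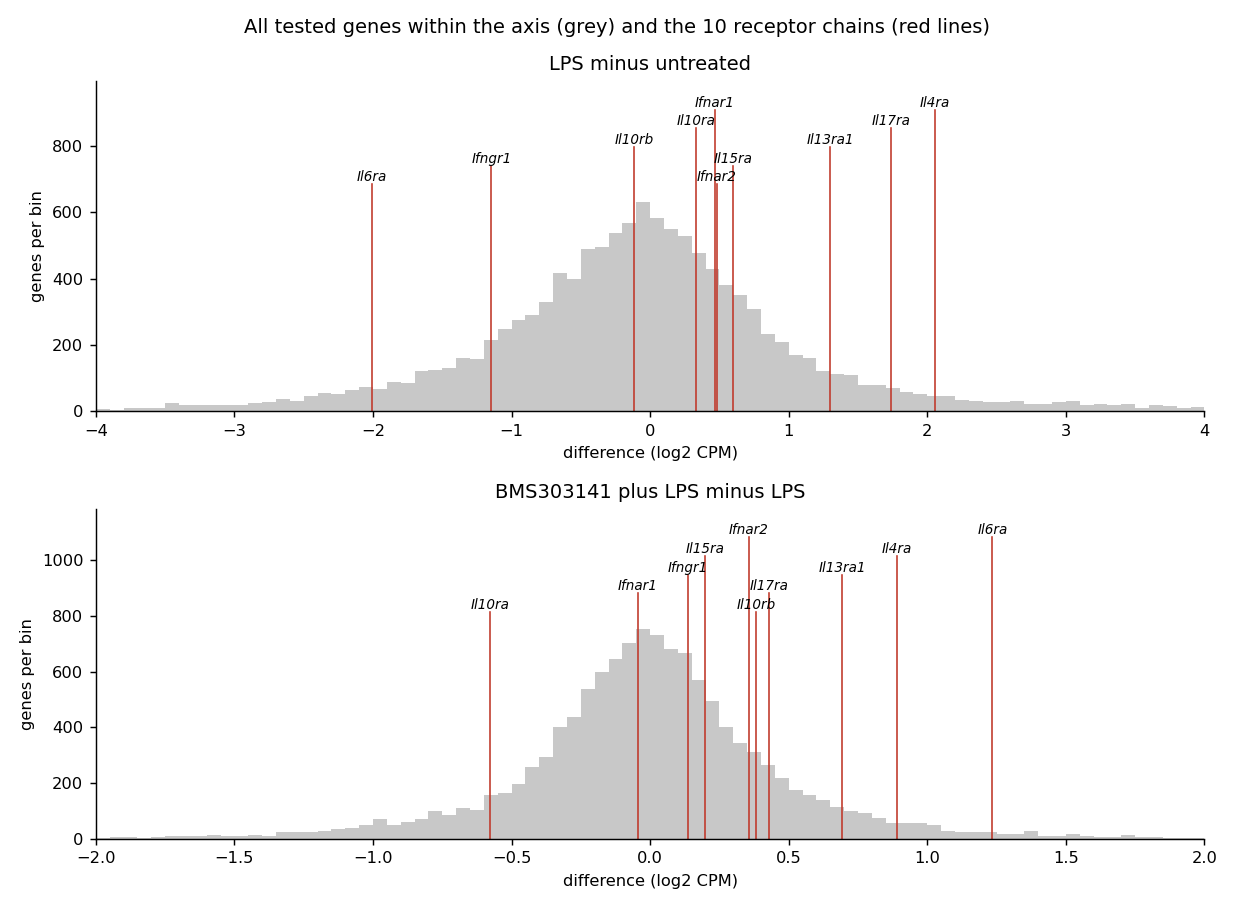
Histograms of the difference in log2 CPM (horizontal axis) over all tested genes, counted per bin (vertical axis), with the 10 chains as red lines; 272 genes in the LPS panel and 50 in the inhibitor panel lie beyond the axis. The chains spread over both sides of 0 after LPS, and Il6ra lies on the right flank in the inhibitor panel.

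Il4ra (ENSMUSG00000030748, GRCm38 chr7:125552120-125579474, plus strand) encodes the chain shared by the receptors for IL-4 and IL-13. Its level was 6.17, 6.25 and 6.16 in the untreated libraries, 8.21, 8.18 and 8.35 with LPS, and 9.16, 9.08 and 9.17 with BMS303141 plus LPS. The 3 groups did not overlap, and the spread within each was at most 0.09 (SD, n = 3). LPS raised it by 2.05 (SE 0.10, 95% interval 1.85 to 2.26, adjusted p = 1.25e-09), and the inhibitor ahead of LPS raised it by a further 0.89 (0.68 to 1.10, adjusted p = 0.000506). Together these placed it 7.69-fold above untreated cells (2.94, adjusted p = 4.21e-11). The inhibitor difference stayed between 0.81 and 0.94 and was called in all 19 alternatives with a test, leaving out each library in turn among them, but lies under a 2-fold minimum. An unlisted antisense gene, Gm44876, overlaps Il4ra, and whether reads were counted by strand is not stated in the labels.

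The RefSeq start of Il4ra lies inside the first GENCODE exon, an untranslated one at chr7:125552120-125552328, so only short stretches around motif matches are shown. Capitals mark the letters ATGNAAAT, an octamer-like motif chosen after this sequence was seen. The matches begin 139, 67 and 34 bases before the RefSeq start.
Il4ra chr7:125552121-125552150 (+): tggggtggggcATGCAAATaagccagcgat
Il4ra chr7:125552193-125552222 (+): aggggcggggcATGTAAATgaccgtgcacg
Il4ra chr7:125552226-125552255 (+): tggggcgtcgcATGTAAATaagggacacca
At least 1 match, on either strand, was present in 5.03% of the 32851 RefSeq windows of 250 bases before a start (build GRCm38.p6), and 3 or more matches in 0.0365%. Because the motif was chosen from this window, these shares do not measure how unusual the window is. The other 8 motifs searched had no match in the Il4ra window, which says only that those letters are not there.

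Il13ra1 (ENSMUSG00000017057, chrX:36112110-36171259, plus strand) encodes the chain that joins IL4RA in the receptor for both IL-4 and IL-13. It was at 1.02, 0.85 and 1.56 untreated, 1.17, 3.27 and 2.89 with LPS, and 3.32, 3.21 and 2.87 with the inhibitor and LPS. LPS replicate 1, the shallowest library, lay among the untreated values, with about 4.13 reads where the other LPS libraries had 28.7 and 23.7. The LPS difference was 1.30 (SE 0.46, adjusted p = 0.0327), and 1.94 (adjusted p = 0.000184) without that library. The call was lost in 7 of 18 alternatives, with an adjusted p up to 0.144 when LPS replicate 2 was left out, 0.119 without LPS replicate 3, and 0.0760 and 0.103 without untreated replicates 1 and 2. Against untreated cells the inhibitor-treated libraries were 3.98-fold higher (1.99, 1.00 to 2.98, adjusted p = 0.00296), a call that held in all 18 alternatives. Between the inhibitor and LPS alone, the difference was 0.69 (-0.30 to 1.68, adjusted p = 0.517), and 0.06 without LPS replicate 1.

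Il6ra (ENSMUSG00000027947, chr3:89864059-89913196, minus strand) encodes the chain that binds IL-6 before the Il6st product joins. Untreated libraries had 5.48, 5.55 and 5.45, LPS libraries 3.35, 3.41 and 3.68, and BMS303141 plus LPS libraries 4.92, 4.50 and 4.73. The inhibitor-treated cells thus lay between the other groups without touching either. After LPS it fell by 2.01 on the log2 scale (SE 0.17, adjusted p = 3.79e-07). With the inhibitor it was 1.23 higher than with LPS alone (0.88 to 1.59, adjusted p = 0.00226). It remained below untreated cells, with a difference of -0.78 (-1.14 to -0.42, adjusted p = 0.00182). All these calls held in the 19 alternatives with a test, and the inhibitor difference ranged from 1.12 to 1.34. The antisense gene Gm42809, which is not listed, overlaps the start of Il6ra.

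Promoter windows of RefSeq, 250 bases ending just before the start, were given for 7 of the 10 chains and are shown for Il6ra and Il13ra1. Capitals mark a form of the NF-kB site (GGGA and CC with 4 bases of any kind between them) and GGAAGT, the core of ETS sites, on either strand. NF-kB acts downstream of the LPS receptor, and the ETS factor PU.1 is a regulator of macrophage genes.
Il6ra chr3:89913197-89913446 (-): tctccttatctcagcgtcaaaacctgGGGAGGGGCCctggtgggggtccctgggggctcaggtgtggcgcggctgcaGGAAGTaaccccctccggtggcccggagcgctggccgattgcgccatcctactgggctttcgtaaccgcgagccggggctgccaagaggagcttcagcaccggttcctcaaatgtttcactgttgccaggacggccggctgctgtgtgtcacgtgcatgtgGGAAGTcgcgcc
Il13ra1 chrX:36111858-36112107 (+): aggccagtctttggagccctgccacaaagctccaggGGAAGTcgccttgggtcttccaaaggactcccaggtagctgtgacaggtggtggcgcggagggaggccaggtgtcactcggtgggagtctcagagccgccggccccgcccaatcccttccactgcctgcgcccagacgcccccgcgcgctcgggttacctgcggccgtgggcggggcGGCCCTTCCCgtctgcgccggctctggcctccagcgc
The Il6ra window held the NF-kB letters 224 bases before the start and the ETS letters at 173 and 12 bases. The Il13ra1 window held them at 37 and 214 bases. Among all 32851 windows 17.6% held the NF-kB form and 19.7% held GGAAGT, so both motifs are common, and a match is a description only.

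Il15ra (ENSMUSG00000023206, chr2:11705290-11734317, plus strand), which encodes the chain that presents IL-15, was low in all groups. Its levels ran from 0.64 to 2.15 untreated, 1.69 to 2.80 with LPS and 1.29 to 2.81 with the inhibitor, so all groups overlapped. These values rested on about 5.01 to 25.5 reads. No difference was called: 0.60 after LPS (-0.49 to 1.68, adjusted p = 0.354) and 0.20 with the inhibitor (-0.88 to 1.28, adjusted p = 0.889). Il15ra had 2 RefSeq starts, and the window of 1 of them held the AP-1 letters TGANTCA 30 bases before the start (6.75% of windows hold them).

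Il17ra (ENSMUSG00000002897, chr6:120463247-120487559, plus strand) encodes the common chain of the IL-17 receptors. Untreated levels were 6.47, 6.58 and 6.59, LPS levels 8.65, 7.90 and 8.32, and levels with BMS303141 plus LPS 8.97, 8.52 and 8.66. Every library with LPS lay above every untreated library, whereas the inhibitor and LPS groups overlapped. LPS raised it by 1.74 (SE 0.17, 1.38 to 2.10, adjusted p = 1.83e-06), and the rise over untreated cells was 4.50-fold in the inhibitor group (2.17, adjusted p = 2.07e-07). The inhibitor difference was 0.43 (0.07 to 0.79, adjusted p = 0.250); it was called with weights per library (0.46, adjusted p = 0.0283), as it was without LPS replicate 1.

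The ligand-binding chain of the IL-10 receptor, Il10ra (ENSMUSG00000032089, chr9:45253837-45269149, minus strand), was at 5.03, 5.43 and 5.42 untreated, 5.59, 5.65 and 5.65 with LPS, and 4.84, 5.30 and 5.01 with the inhibitor. The LPS libraries were the highest 3 of the 9 and overlapped neither group, but neither difference was called. After LPS the difference was 0.33 (-0.01 to 0.68, adjusted p = 0.108), and with the inhibitor it was -0.58 (-0.92 to -0.23, adjusted p = 0.0908). Weights per library gave -0.61 with an adjusted p of 0.0113. Il10ra was the sole chain besides Ifnar1 with a negative inhibitor difference, and for Ifnar1 that difference was -0.04.

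Il10rb (ENSMUSG00000022969, chr16:91406164-91425834, plus strand) encodes the second chain of the IL-10 receptor, which also serves IL-22 and interferon lambda receptors. It ranged from 5.16 to 6.06 untreated, 5.01 to 6.04 with LPS and 5.80 to 6.12 with the inhibitor, and all groups overlapped. The differences were -0.12 after LPS (-0.68 to 0.44, adjusted p = 0.741) and 0.38 with the inhibitor (-0.18 to 0.94, adjusted p = 0.527). Leaving out LPS replicate 1, its lowest library, turned the LPS difference to 0.17.

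Ifngr1 (ENSMUSG00000020009, chr10:19591949-19610229, plus strand) encodes the chain that binds interferon gamma. It was the highest of the 10 in untreated cells, with 8.25, 8.04 and 8.35, and stood at 6.82, 7.26 and 7.13 with LPS and 7.14, 7.16 and 7.31 with the inhibitor. Untreated libraries lay above all others, and the LPS-treated groups overlapped each other. After LPS it fell by 1.15 on the log2 scale (SE 0.13, adjusted p = 9.27e-06), and it was 2.02-fold below untreated cells in the inhibitor group (adjusted p = 3.11e-05). The inhibitor difference was 0.13 (-0.15 to 0.42, adjusted p = 0.670). Its promoter window matched none of the 9 motifs.

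The genes Ifnar2, Il10rb and Ifnar1 and the interferon gamma partner chain Ifngr2 lie in a row in that order on chromosome 16, all on the plus strand, within 193 kb. Of these 4 neighbours, Ifnar2, Ifnar1 and Ifngr2 rose after LPS and Il10rb was not called. Ifngr2 rose by 0.33 (SE 0.11, adjusted p = 0.0289), a call lost without untreated replicate 1 or 2 or LPS replicate 2 or 3 (adjusted p up to 0.0916). Fitting without a mean trend, or with only the 2 groups compared, also ended the Ifngr2 call. Only 574 bases separate Ifnar2 from Il10rb, and an unlisted protein-coding gene on the same strand, Gm21970 (chr16:91391721-91419451), overlaps both. Reads in exons that it shares could have been lost or split, so the levels of Ifnar2 and Il10rb are uncertain to that degree.

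Ifnar2 (ENSMUSG00000022971, chr16:91372783-91405589), the high-affinity chain for type I interferon, was at 6.59, 6.70 and 6.72 untreated, 6.87, 7.38 and 7.20 with LPS, and 7.39, 7.54 and 7.59 with the inhibitor. The 3 groups did not overlap. The rise after LPS was 0.48 (0.20 to 0.77, adjusted p = 0.00892), and the rise over untreated cells was 0.84 with the inhibitor (0.55 to 1.12, adjusted p = 0.000172). Both calls held in the 19 alternatives with a test. The step from LPS to the inhibitor group, 0.36 (0.07 to 0.64, adjusted p = 0.223), was not called, and it was 0.22 without LPS replicate 1.

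The Ifnar2 window is shown because it alone among the windows of the chains held the letters TTCNNNGAA, in capitals, a general form of STAT site.
Ifnar2 chr16:91372533-91372782 (+): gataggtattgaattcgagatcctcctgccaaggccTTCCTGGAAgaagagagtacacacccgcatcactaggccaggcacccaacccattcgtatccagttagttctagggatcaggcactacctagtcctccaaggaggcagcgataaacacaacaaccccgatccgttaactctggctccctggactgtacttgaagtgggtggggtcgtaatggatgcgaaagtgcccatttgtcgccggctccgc
The match begins 214 bases before the start, and 7.02% of all windows hold 1. None of the 7 chains with a window held the STAT6 form, TTC and GAA with 4 bases between them (5.85% of windows). The same was true of the interferon-stimulated form, GAAA and GAAA with 2 bases between them (2.98%). The window of the partner chain Ifngr2, which is not among the 10, held the STAT6 form 91 bases before its start. It also held the NF-kB form at 76 and 75 bases.

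Ifnar1 (ENSMUSG00000022967, chr16:91485238-91507441), the partner of IFNAR2, had 6.54, 6.81 and 7.19 untreated, 7.53, 7.19 and 7.22 with LPS, and 7.21, 7.21 and 7.39 with the inhibitor. Untreated replicate 3 reached the lowest LPS library, so these groups overlapped. The rise of 0.47 after LPS (0.13 to 0.80, adjusted p = 0.0262) was lost in 5 of 19 alternatives, among them leaving out untreated replicate 1 (0.31, adjusted p = 0.117), untreated replicate 2 (adjusted p = 0.0778) or LPS replicate 1. The rise over untreated cells with the inhibitor (0.42, adjusted p = 0.0409) was lost in 9 of 19, with an adjusted p up to 0.173. Between the inhibitor and LPS alone the difference was -0.04 (-0.38 to 0.29, adjusted p = 0.924).

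**Figure D4:**
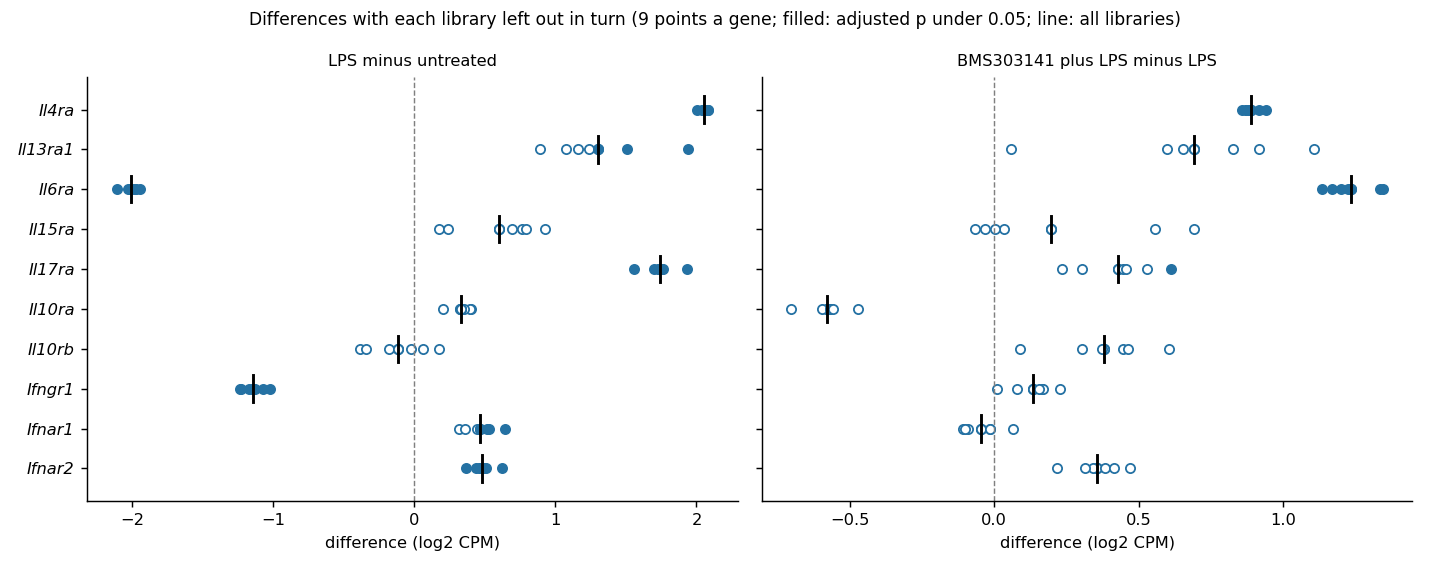
Differences in log2 CPM (horizontal axis) of each chain with each of the 9 libraries left out in turn; filled points have an adjusted p under 0.05 and the line marks the value with all libraries. Il4ra and Il6ra stay filled in every panel, while Il13ra1 and Ifnar1 lose calls after LPS.

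As 3′ tag levels, the chains kept to a few tiers. In untreated cells Ifngr1 stood alone at the top (8.21 ± 0.16, SD, n = 3), followed by Ifnar1, Ifnar2 and Il17ra, whose ranges overlapped, and then Il4ra (6.19 ± 0.05). With LPS, Il17ra (8.29 ± 0.38) and Il4ra (8.25 ± 0.09) led and overlapped, ahead of Ifnar1, Ifnar2 and Ifngr1, which overlapped one another. With the inhibitor Il4ra (9.14 ± 0.05) lay above Il17ra (8.72 ± 0.23) in every library. Il13ra1 and Il15ra held the lowest places in all groups, at the 26.2 and 22.4 percentile of mean level over tested genes, while Il4ra was at the 96.4 percentile.

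The genes that act with these chains were read from lists chosen with earlier results known. Each count called in a list stands beside 47.0% of all tested genes called after LPS and 2.12% with the inhibitor against LPS. Of 9 partner chains 4 were listed. After LPS 3 of them rose and Il6st, the partner of Il6ra, fell by 1.31 (SE 0.18, adjusted p = 5.32e-05), the same direction as Il6ra. Il2rg, the common gamma chain that pairs with IL4RA, rose by 1.49 (SE 0.26, adjusted p = 0.000359), and Il17rd, a partner of IL17RA, rose by 3.78 from an untreated mean of -1.05. None of the 4 was called with the inhibitor. At an unadjusted p under 0.05, 1 of them, Ifngr2 (0.25), passed. Among 14 other interleukin and colony-stimulating factor receptor chains, 4 rose and 6 fell after LPS. Csf3r, the G-CSF receptor, rose by 2.70, while Il7r, Lifr and Csf1r, the M-CSF receptor, fell by 2.91, 3.09 and 1.21. None was called with the inhibitor. At an unadjusted p under 0.05, 4 passed: Osmr (1.81, adjusted p = 0.118), Il21r (0.72), Il7r (0.51) and Csf2rb2 (0.36). The Osmr difference was larger than that of Il6ra (1.23), though Osmr was low, with a mean of 0.34 with LPS.

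Of 15 cytokines that bind receptors made with these chains, 3 were listed, and all rose after LPS. From an untreated mean of -0.89, Il6 rose by 8.41, while Il10 rose by 3.94 and Il15 by 2.95. With the inhibitor Il10 was 1.53 higher (SE 0.33, adjusted p = 0.0294). Il6 had a difference of -1.71 (SE 0.35, adjusted p = 0.0217), the opposite sign to its receptor chain Il6ra. Both calls were fragile: leaving out LPS replicate 2 or 3, or BMS303141 plus LPS replicate 1 or 3, ended each, with an adjusted p up to 0.128 for Il10 and 0.124 for Il6. Leaving out BMS303141 plus LPS replicate 2 or centring on ribosomal protein genes also ended the call of Il10, and fitting without a mean trend ended both.

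Among the JAKs, Jak2, which serves the interferon gamma receptor, rose from 5.08 ± 0.01 to 9.28 ± 0.07 with LPS (4.21, SE 0.10, adjusted p = 4.44e-12) and stood at 9.38 ± 0.08 with the inhibitor (SD, n = 3). Jak3 and Tyk2 rose by 2.08 and 0.51, and Jak1, which serves most of these receptors, had a difference of 0.23 (adjusted p = 0.0794). None of the 4 was called with the inhibitor, and 1, Tyk2 (-0.42), passed at an unadjusted p under 0.05. Of 6 genes described here for STATs and Irf9, 4 rose and 1 fell after LPS. Stat6, the factor of the IL-4 receptor, fell by 1.37 (SE 0.11, adjusted p = 2.83e-07) while Il4ra rose, and with the inhibitor it was at a difference of 0.29 (adjusted p = 0.240) from LPS alone. Stat2 rose by 1.15 and Irf9 by 0.85. With the inhibitor Stat2 had a difference of -0.86 (SE 0.16, adjusted p = 0.0148) and Irf9 one of -0.53 (adjusted p = 0.0540). The Stat2 call was lost without LPS replicate 2 or BMS303141 plus LPS replicate 1 or 3 (adjusted p up to 0.0948). Fitting without a mean trend also ended the Stat2 call.

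**Figure D5:**
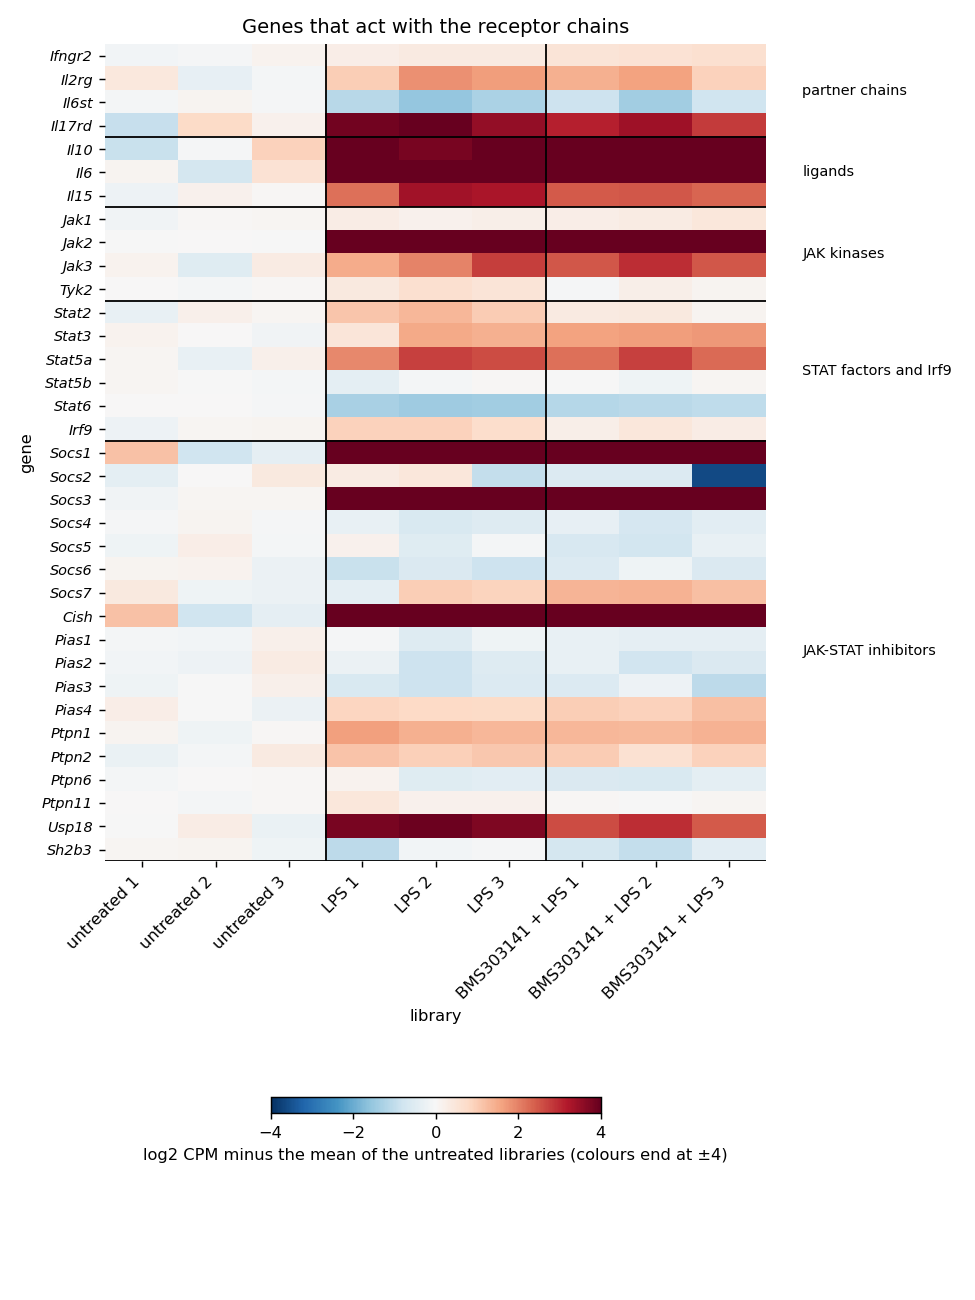
Log2 CPM minus the mean of the untreated libraries (colour, ending at ±4) of genes that act with the receptor chains, 1 row a gene and 1 column a library. Jak2 is high in all 6 libraries with LPS, Stat6 and Il6st are low in them, and Stat2 is paler with the inhibitor.

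Of 18 inhibitors of JAK-STAT signalling, 7 rose and 3 fell after LPS. Socs3 and Cish rose by 7.55 and 6.81 from untreated means of -0.37 and -1.96 (Cish was at the lowest value in 2 of the 3 untreated libraries), Usp18, which restrains the type I interferon receptor through IFNAR2, by 3.82, and Ptpn1 by 1.46. With the inhibitor Usp18 had the single call of the list, -1.15 (SE 0.19, adjusted p = 0.00843), which was lost without BMS303141 plus LPS replicate 1 or 3 (adjusted p up to 0.0713). Of 8 genes of IL-17 receptor signalling, 4 rose after LPS and none fell. Nfkbiz rose by 3.03, Tab2 by 1.27, Traf3ip2 by 1.06 and Traf3 by 0.50, the last lost without untreated replicate 2 or LPS replicate 3 (adjusted p up to 0.0821). None of the 8 was called with the inhibitor, and 2 passed at an unadjusted p under 0.05.

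Genes known to respond to the cytokines of these receptors were read from 3 lists. Of 19 interferon-responsive genes, 18 rose and 1, Irf8, fell after LPS, and with the inhibitor 7 were lower and Irf8 was higher, beside a list median of -0.93 and -0.00 over all genes. Mx2, an antiviral GTPase, had an inhibitor difference of -1.57 (SE 0.18, adjusted p = 0.000549) and Mx1 one of -1.78 (SE 0.28, adjusted p = 0.00505). Irf8, a transcription factor of the macrophage lineage, stood at 7.96 ± 0.06 untreated and 5.91 ± 0.02 with LPS (SD, n = 3). With the inhibitor it lay between them: the difference from LPS was 1.10 (SE 0.11, adjusted p = 0.000482) and that from untreated cells -0.95 (adjusted p = 1.36e-05). The calls of Mx1, Mx2 and Irf8 held in all alternatives with a test. The other 5 lower genes, Ifit2, Ifit3, Oasl1, Oasl2 and Gbp2, each lost the call without BMS303141 plus LPS replicate 3 and when fitted without a mean trend. Oasl2 also lost it without BMS303141 plus LPS replicate 1. Oasl1 lost it without that library or LPS replicate 2 or 3 as well (adjusted p up to 0.146). Gbp2 lost it without any single library of the LPS or the inhibitor group (adjusted p up to 0.167).

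Of 8 genes known to respond to IL-10 or STAT3, 7 rose after LPS, and with the inhibitor Il1rn, the IL-1 receptor antagonist, was called higher (1.09, SE 0.21, adjusted p = 0.0163). That call was lost without BMS303141 plus LPS replicate 1 or 3 (adjusted p up to 0.0966) and when fitted without a mean trend (adjusted p = 0.107). Of 14 genes known to respond to IL-4 or IL-13, 7 were listed and 6 tested, and of these 2 rose and 3 fell after LPS. The chemokine gene Ccl22 was at the lowest value of each of the 3 untreated libraries (mean -2.65) and at 3.88 ± 0.48 with LPS (SD, n = 3), so the size of its rise is set by that floor. Clec7a fell by 1.81. With the inhibitor 2 of the 6 were called, both lower, beside 2.12% of all tested genes called. The other 4 were not called: Mrc1 (0.15), Clec7a (0.25), Tgm2 (0.14) and Myc (-0.79). Ccl22 had a difference of -2.24 (SE 0.42, adjusted p = 0.0152) and Egr2 one of -1.47 (SE 0.28, adjusted p = 0.0152). Both were lost when any of several libraries was left out, LPS replicates 2 and 3 and BMS303141 plus LPS replicates 1 and 3 for both and BMS303141 plus LPS replicate 2 for Ccl22 (adjusted p up to 0.0936). The ligand genes Il4 and Il13 were not among the listed genes. Any link between these response genes and the level of Il4ra was not tested.

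Across the 9 libraries, the genes whose profile was most like that of each chain were taken from 5615 genes by Pearson correlation. The points share their libraries and 3 groups, so the correlations are descriptions. Il4ra was closest to Fbxl5 (r = 0.997) and Lrrc8d (0.996), Il6ra to Neat1 (0.991) and Zfp36l1 (0.989), and Il17ra to Eno1 (0.993) and Dst (0.992). Ifngr1 was closest to Commd8 (0.989) and Mcm3ap (0.988), Ifnar2 to Zfp207 (0.990) and Gnai3 (0.987), and Ifnar1 to Gmppb (0.988) and Cdc25a (0.980). For Il10rb they were Sdhc (0.987) and Rnf141 (0.972), and for Il13ra1 Egln1 (0.971) and Ptbp3 (0.969). Il10ra, with Rasa4 (0.925) and Ddx3y (0.920), and Il15ra, with H2-T22 and Khdc4 (both 0.915), had no profile as close.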

How the data were processed

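RNA of 9 libraries, 3 untreated, 3 LPS and 3 BMS303141 plus LPS, was read from 3′ ends after 16 PCR cycles on 100 ng of total RNA, per the labels' protocols. Per the submitters' processing notes, the tools included edgeR, limma, MultiQC, featureCounts 1.5.1 and STAR 2.5.2b, on the build GRCm38, with no role stated for any. The deposited values are log2 scores as the authors made them. Their form, log2 CPM quantile-normalised across libraries, was read from the values: their powers of 2 sum to 987472 to 987498 in each library. A shift common to most transcripts would not be seen, and a fold is that of these values. Depth was estimated from the spacing of low values and is approximate.

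The test covered 12196 of 12204 genes, all 10 chains included, after a filter that asked for a log2 value of 0 or more in 3 or more libraries. A linear model with a mean per group over all 9 libraries was fitted in limma 3.58.1 (R 4.3.3, two-sided, eBayes with its trend option, Benjamini-Hochberg over all tested genes), with calls at an adjusted p under 0.05; the script was tested on simulated data. SE and 95% intervals come from that model. Samples were grouped by their treatment labels. The members, lists and markers were chosen with earlier results of these data known. Named were all members, up to 4 genes a list with the smallest p in a comparison and the 2 most correlated genes per member; single genes outside this rule were named after their values were seen. From the list of transcription factors, 1 gene is not reported here, and receptor chains and cytokines that pair with or bind none of the members were taken out of the lists after their values were seen. Coordinates come from GENCODE M21 and promoter windows from RefSeq. In all, 19 alternatives were planned and 1, precision weights from the mean trend, was chosen after seeing the data.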

Additional observations from a re-analysis of the deposited data

How the results depend on the processing

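The number of chains called after LPS was 7, and 5 to 7 with each library left out in turn. With the inhibitor against LPS it was 2, with 2 to 3 when a library was left out, 4 with weights per library and 1 with a 2-fold minimum. With the inhibitor against untreated cells it was 7, with 6 to 7 when a library was left out and 4 with a 2-fold minimum. No called difference changed sign. Differences that were not called crossed 0 in a few cases. After LPS, Il10rb moved from -0.12 to 0.000117 with ribosomal centring and to between -0.39 and 0.17 with a library left out. With the inhibitor, Ifnar1 moved from -0.04 to 0.031 with weights per library and to between -0.11 and 0.064 with a library left out, and Il15ra from 0.20 to between -0.068 and 0.69. Against untreated cells, Il10rb with the inhibitor moved from 0.26 to between -0.0059 and 0.44. The labels do not say if replicate numbers pair the libraries. Deviations from the group means of same-numbered libraries correlated at -0.30 to 0.17. With 3 libraries a group and no correlations of different-numbered libraries beside them, these values cannot decide it. A replicate block gave 7, 2 and 6 chains in the 3 comparisons and 208 against 258 genes with the inhibitor. Among the genes named, the block ended the calls of Ifnar1 against untreated cells with the inhibitor (adjusted p = 0.0514) and of Il6 with the inhibitor against LPS. Over all genes the inhibitor calls ranged from 62 (without BMS303141 plus LPS replicate 3) to 317 with a library left out, and were 99 without a mean trend, 388 with the added precision weights, 814 with weights per library and 173 with ribosomal centring. A minimum of 10 CPM removed Il13ra1 and Il15ra, whose few reads limit what could be detected.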
